A study of Rattus norvegicus with 8 samples.

Results

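The miR-99, miR-100 and miR-125 families were examined in exosomes, vesicles shed by cells, of rat nucleus pulposus progenitor cells (NPPC, 4 libraries) and rat nucleus pulposus cells (NPC, 4 libraries). Nucleus pulposus cells populate the gelatinous core of the intervertebral disc, and the progenitor cells come from the same tissue. The members were the rat-named rows of the deposited small RNA count table named rno-miR-99a-5p, rno-miR-99b-5p, rno-miR-100-5p, rno-miR-125a-5p or rno-miR-125b-5p, where rno stands for rat. They filled 6 rows, since miR-125b-5p had 2, and made up 5 of the 415 rat mature names and of the 1273 names in the table. The study set the miRNA cargo of progenitor cell exosomes against that of NPC exosomes. Both groups carried the label intervertebral disc and no treatment; strain, age, passage and cell isolation are not stated in the labels. Nothing in the labels says that replicates are separate cultures or animals, so each p-value reflects spread that may be technical.

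The miR-99 and miR-100 miRNAs form one seed family, known in human cells for repressing MTOR and IGF1R, which drive growth. The miR-125 miRNAs are the vertebrate relatives of lin-4, the first miRNA described in Caenorhabditis elegans, and are known for restraining developmental regulators such as Lin28. A miRNA finds its targets mainly through the seed, bases 2 to 8 from its 5′ end, and members of the families lie next to a let-7 hairpin at several places in vertebrate genomes.

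The mature sequences show how the members divide into 2 seed families. RefSeq (assembly GRCr8) held 4 of the 5 members, given here 5′ to 3′ with the seed in capitals; miR-99a-5p is named only.
miR-99b-5p: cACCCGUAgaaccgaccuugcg
miR-100-5p: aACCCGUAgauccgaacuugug
miR-125a-5p: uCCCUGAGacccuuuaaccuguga
miR-125b-5p: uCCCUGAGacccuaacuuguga
The seed ACCCGUA was shared by miR-99b-5p, miR-100-5p and the deposited row of miR-99a-5p. The seed CCCUGAG was shared by miR-125a-5p and miR-125b-5p, which are identical over their first 13 bases. The deposited row of miR-125a-5p had a sequence of 22 bases, 2 bases shorter than the RefSeq entry.

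In the deposited table the members lay at 3 places, each with a let-7 hairpin between a miR-99 or miR-100 hairpin and a miR-125 hairpin. The coordinates are those of the table, all on the plus strand; the labels name no genome build. On chromosome 1 the hairpins of miR-99b (chr1:59704212-59704291), let-7e (chr1:59704375-59704483) and miR-125a (chr1:59704826-59704920) fell within 709 bases. On chromosome 11 those of miR-99a (chr11:16052151-16052238), let-7c-1 (chr11:16052868-16052975) and miR-125b-2 (chr11:16097346-16097433) spanned 45283 bases. On chromosome 8 those of miR-100 (chr8:45746947-45747027), let-7a-2 (chr8:45753250-45753377) and miR-125b-1 (chr8:45798257-45798353) spanned 51407 bases. The 5p arms of miR-125b-1 and miR-125b-2 are identical, so the table divided their reads equally between the chromosome 8 and chromosome 11 rows, and the source of a miR-125b-5p read cannot be told. The rows of miR-99a-5p and miR-100-5p held fractional counts in the same 2 libraries, NPPC replicate 1 and NPC replicate 3, so some of their reads were divided with other rows.

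NPPC libraries held 819845 to 1416940 counts and NPC libraries 329011 to 681591, so the shallowest NPPC library exceeded the deepest NPC library. NPC replicate 1 stood apart from the other 7. Its TMM factor, the scaling factor that edgeR estimates for each library, was 1.64, against 0.872 to 1.01 in the others. GC-rich sequences were high there: over 278 rat rows of the same library, which are not replicates, GC percent and the row's departure from its 8-library mean had a Spearman correlation of 0.855, against -0.624 to -0.047 in the other 7. The 5 mesenchymal markers (both arms of miR-199a, miR-214-3p, miR-143-3p and miR-145-5p) summed to 175834 to 190216 CPM (counts scaled to library size and TMM factor) in NPPC and 142027 to 214735 CPM in NPC exosomes. The 4 cartilage markers, both arms of miR-140 and of miR-455, summed to 8621 to 9260 CPM in NPPC and 11436 to 16115 CPM in NPC exosomes, so these ranges did not overlap. Among single rows tested, 10.8% had groups that did not overlap. The 4 erythrocyte markers reached 198 to 1412 CPM in NPPC and 372 to 581 CPM in NPC exosomes, and the leukocyte list, in which miR-223-3p had no row, 81.5 to 171 CPM in NPPC and 18.6 to 213 CPM in NPC exosomes. The endothelial pair summed to 460 to 678 CPM in NPPC and 277 to 754 CPM in NPC exosomes. Summed markers of epithelium (miR-141-3p and miR-429 had no row), neurons, liver and muscle stayed at or below 81.4 CPM in each NPPC library and 89.2 CPM in each NPC library, and the neuronal and muscle sums were 0 in at least 1 NPC library. The part of these lists in the results below was not tested.

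All 5 members were among the 38 most abundant rat miRNAs in the exosomes of both cell types. Together they took 6.61% ± 0.665 (SD, n = 4) of NPPC counts and 8.04% ± 2.71 (SD, n = 4) of NPC counts. That gap of -1.43 percentage points was -0.151 without NPC replicate 1, where the share was 11.9%, against 5.59% to 7.79% in the other NPC libraries. miR-125b-5p ranked 6th of the 415 rat names in both groups. It took 3.73% ± 0.285 (SD, n = 4) of NPPC counts and 4.19% ± 1.496 (SD, n = 4) of NPC counts, more than the other 4 members together in every NPPC library. The counting error of a share was small, with a 95% Wilson interval of at most 0.0828 percentage points on either side. Such intervals cover counting error only, since no molecular identifiers are described.

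miR-125b-5p, known for repressing p53 in human and zebrafish cells, stood at 40392, 40532, 40863 and 38672 CPM in NPPC replicates 1 to 4, against 38260, 40406, 30838 and 39915 CPM in NPC replicates 1 to 4. The groups overlapped, and NPC replicate 3 was the lowest library. Its log2 fold change of NPPC over NPC was 0.10 ± 0.13 (SE), with a 95% interval from -0.18 to 0.39. It did not pass edgeR's two-sided quasi-likelihood test (Benjamini-Hochberg adjusted p = 0.708), and the fold change was -0.17 with total count scaling and -0.011 among rat names alone.

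miR-125a-5p, whose hairpin lies in the cluster of miR-99b, had 4546, 3795, 4093 and 3595 CPM in NPPC replicates 1 to 4, against 5015, 4585, 2909 and 4436 CPM in NPC replicates 1 to 4. The NPPC values lay inside the range of the NPC values, whose lowest library was again replicate 3. The log2 fold change was -0.080 ± 0.19 (SE), with a 95% interval from -0.52 to 0.36 and an adjusted p of 0.857 by edgeR's quasi-likelihood test. Its sign turned without NPC replicate 1 (0.023) and without NPPC replicate 4 (0.011).

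miR-99a-5p, the most abundant miRNA of its seed family here, had 16780, 15398, 14161 and 14141 CPM in NPPC replicates 1 to 4, against 15151, 20479, 16635 and 15382 CPM in NPC replicates 1 to 4. The groups overlapped, with NPC replicate 2 the highest. Its log2 fold change was -0.16 ± 0.14 (SE), with a 95% interval from -0.49 to 0.17, and the edgeR adjusted p was 0.611. It was -0.051 without NPC replicate 2 and -0.40 with total count scaling.

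miR-99b-5p, from the compact chromosome 1 cluster, had 7799, 6681, 6908 and 6908 CPM in NPPC replicates 1 to 4, against 9969, 8443, 7851 and 7381 CPM in NPC replicates 1 to 4. NPC replicate 1 was the highest library, and of the NPPC libraries only replicate 1 reached into the NPC range. The log2 fold change was -0.25 ± 0.14 (SE), with a 95% interval from -0.57 to 0.072 and an edgeR adjusted p of 0.504. The row of miR-99b-5p was 63.6% GC, against 47.6% to 50% for the other members, and with a GC correction of each library its fold change was 0.18.

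miR-100-5p, which lies beside let-7a-2 on chromosome 8, had 4932, 4639, 4626 and 4796 CPM in NPPC replicates 1 to 4, against 4115, 5559, 5919 and 4218 CPM in NPC replicates 1 to 4. The NPPC libraries lay close together inside the wider NPC range. Its fold change on the log2 scale was -0.061 ± 0.16 (SE), with a 95% interval from -0.43 to 0.31 and an edgeR adjusted p of 0.866. It was 0.10 without NPC replicate 3 and 0.0047 without NPC replicate 2.

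**Figure D1:**
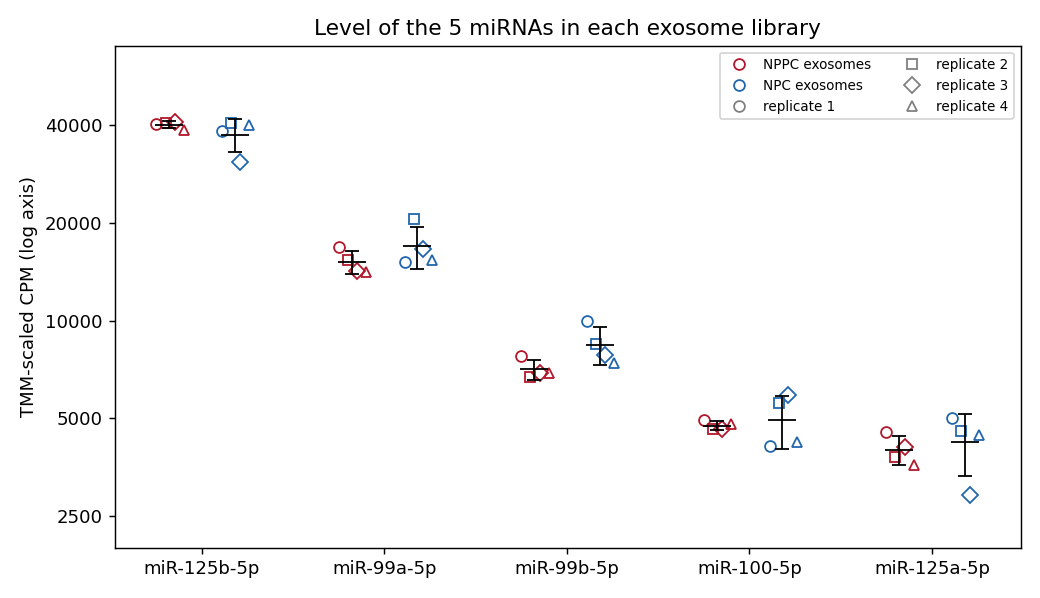
Level of each member in TMM-scaled CPM (log axis), with NPPC libraries in red and NPC libraries in blue; marker shapes give the replicate, and bars show the mean and SD of 4 libraries. The groups overlap for all 5 members, and the NPC libraries spread more widely, as for miR-100-5p (4626 to 4932 CPM in NPPC, 4115 to 5919 CPM in NPC).

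Across the members, 0 of 5 passed edgeR's test over all 390 rows (adjusted p from 0.504 to 0.866), and 0 of 5 had an unadjusted p under 0.05. DESeq2's Wald test and limma-voom called 0 of 5 as well. Of all rows tested, 0.256% passed at an adjusted p under 0.05. This was 1 row, miR-146a-5p, a miRNA that restrains inflammatory signalling, which is no member and was chosen after its value was seen. With the replicate number as a block 0 rows passed. An unadjusted p under 0.05 was found in 10.5% of rows, with 4.1% of rows higher and 6.41% lower in NPPC exosomes, against 0 of 5 members. In 10.8% of rows the groups did not overlap in CPM, against 0 of 5 members. The median log2 fold change was -0.080 over the members, 1 positive and 4 negative, and -0.038 over all rows tested. The lowest bound of the 95% intervals was -0.57 (miR-99b-5p) and the highest 0.39 (miR-125b-5p), so a 2-fold difference lay outside all 5 under TMM scaling. A failed test does not show that the levels were equal. The values are relative within a library, so they give neither the number of vesicles per cell nor the number of copies per vesicle.

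**Figure D2:**
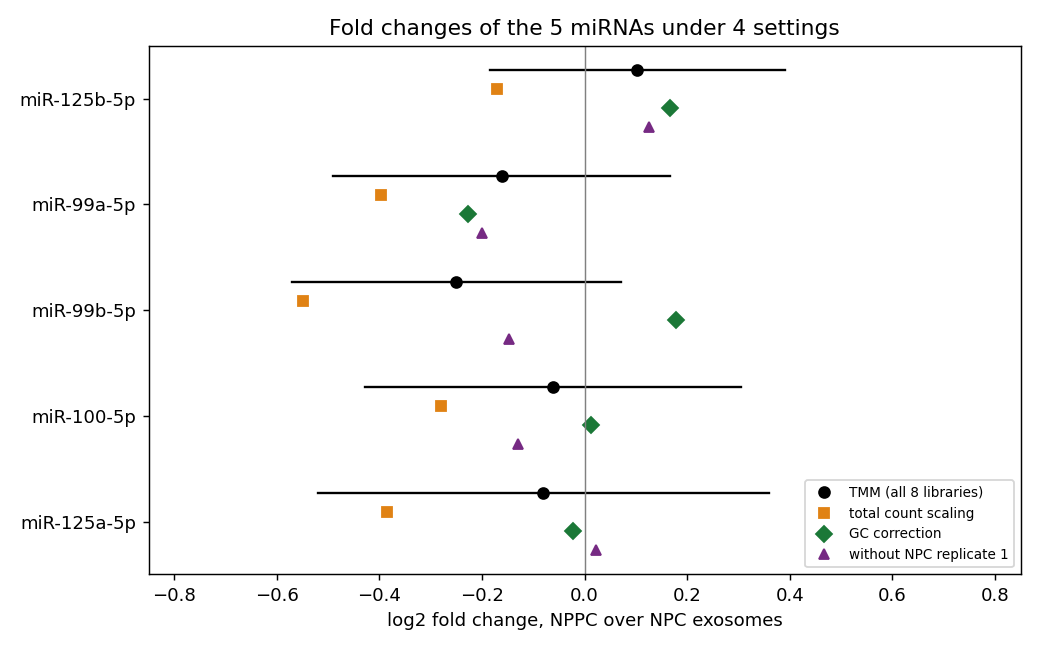
Log2 fold change of each member, NPPC over NPC exosomes, with the 95% interval of the edgeR fit on all 8 libraries (black line) and the value under 3 other settings. All 5 intervals include 0, and total count scaling lowers each value, miR-99b-5p to -0.55.

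The shares of library counts need no scaling factor, and 0 of 8 shares and sums passed. The miR-99 and miR-100 sum took 2.51% ± 0.332 (SD, n = 4) of NPPC counts and 3.36% ± 1.02 (SD, n = 4) of NPC counts, and the exact permutation test, two-sided, gave p = 0.143 (0.343 after Benjamini-Hochberg adjustment over 8 tests). The difference of -0.847 percentage points was -0.370 without NPC replicate 1. The sum was lower in NPPC in 4 of 4 pairs of same-numbered libraries, where the paired exact permutation test gave p = 0.125, the smallest that 4 pairs allow. The labels state no such pairing. With total count scaling, the scale of these shares, the median log2 fold change over all rows tested was -0.287, against -0.038 under TMM. The miR-125 sum took 4.10% ± 0.343 (SD, n = 4) of NPPC counts and 4.68% ± 1.73 (SD, n = 4) of NPC counts, with an exact permutation p of 0.657 (adjusted 0.686). The difference in the miR-125 sum was -0.581 percentage points, and 0.220 without NPC replicate 1, which held the highest share of each of the 5 members. The smallest exact permutation p that 4 against 4 libraries can give is 0.0286.

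The order of the levels by mean CPM was miR-125b-5p, miR-99a-5p, miR-99b-5p, miR-100-5p and miR-125a-5p. A mature miRNA is read whole, so no length correction applies, but ligation and amplification can differ between sequences and the order is that of reads. miR-125b-5p was 2.41 to 2.89 times miR-99a-5p in NPPC and 1.85 to 2.59 times in NPC libraries. miR-99a-5p was 2.05 to 2.30 times miR-99b-5p in NPPC and 1.52 to 2.43 times in NPC libraries, and miR-99b-5p was 1.44 to 1.58 times miR-100-5p in NPPC and 1.33 to 2.42 times in NPC libraries. These 3 steps had the same direction in all 8 libraries. miR-100-5p was 1.08 to 1.33 times miR-125a-5p in the NPPC libraries, above 1 in each, and 0.820 to 2.03 times in the NPC libraries, where the order was not the same throughout. Over the 8 libraries the ratio was above 1 in 6, so these neighbours did not separate across both groups.

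Ratios of members within a library ask whether the balance between paralogs, or between products of 1 locus, differed between the cell types. No ratio passed a two-sided exact permutation test, with adjusted p over 10 ratios between 0.381 and 0.800. miR-125a-5p was 0.0998 ± 0.00908 (SD, n = 4) of miR-125b-5p in NPPC and 0.113 ± 0.0150 (SD, n = 4) in NPC exosomes, a difference of -0.17 on the log2 scale (exact permutation p = 0.200). miR-100-5p was 0.315 ± 0.0212 (SD, n = 4) of miR-99a-5p in NPPC and 0.293 ± 0.0417 (SD, n = 4) in NPC exosomes, a difference of 0.11 (exact permutation p = 0.314). For both pairs the means differed by less than the SD of the NPC libraries.

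The members that share a locus were compared in the same way. On chromosome 1, miR-99b-5p was 1.77 ± 0.105 (SD, n = 4) times miR-125a-5p in NPPC and 2.05 ± 0.454 (SD, n = 4) times in NPC exosomes, a log2 difference of -0.19 (exact permutation p = 0.286). miR-99a-5p was 0.377 ± 0.0291 (SD, n = 4) of miR-125b-5p in NPPC and 0.457 ± 0.0777 (SD, n = 4) in NPC exosomes, a log2 difference of -0.27 (exact permutation p = 0.114). The summed miR-99 and miR-100 reads were 0.611 ± 0.0352 (SD, n = 4) of the summed miR-125 reads in NPPC and 0.738 ± 0.127 (SD, n = 4) in NPC exosomes. That log2 difference was -0.26, with an exact permutation p of 0.0857 and an adjusted p of 0.381. NPC replicate 3 held the highest value, 0.901, and NPC replicate 4, at 0.608, lay among the NPPC libraries.

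**Figure D3:**
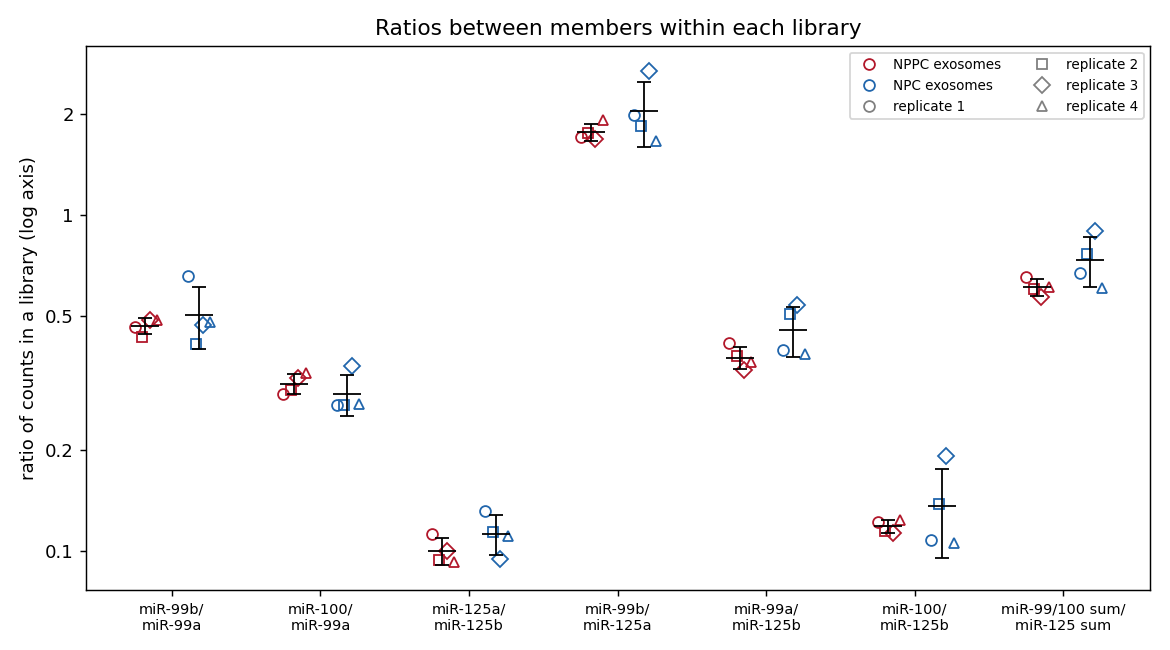
Ratio of counts between members within each library (log axis), NPPC in red and NPC in blue, with the mean and SD of 4 libraries. The groups overlap for all 7 ratios, and NPC replicate 3 holds the highest value in 5 of them, such as 0.901 for the miR-99/100 sum over the miR-125 sum.

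Within each seed family 1 member supplied most reads. Of the reads of rows with the ACCCGUA seed, miR-99a-5p supplied 56.1% ± 1.39 (SD, n = 4) in NPPC and 55.7% ± 3.23 (SD, n = 4) in NPC exosomes. miR-99b-5p supplied 26.3% ± 0.858 (SD, n = 4) in NPPC and 27.9% ± 4.27 (SD, n = 4) in NPC exosomes. Of the reads with the CCCUGAG seed, miR-125b-5p supplied 87.7% ± 0.857 (SD, n = 4) in NPPC and 84.6% ± 2.36 (SD, n = 4) in NPC exosomes. The same seed was held by miR-351-5p, a rodent miRNA outside the member rule, at 3.55% ± 0.174 (SD, n = 4) in NPPC and 5.90% ± 1.499 (SD, n = 4) in NPC exosomes. miR-351-5p had 1742, 1534, 1701 and 1521 CPM in NPPC replicates 1 to 4, against 3834, 2319, 1877 and 2484 CPM in NPC replicates 1 to 4. All NPPC libraries lay below all NPC libraries, which held for 10.8% of all rows in either direction. Its log2 fold change was -0.69 ± 0.23 (SE), and it did not pass edgeR's test over all rows (adjusted p = 0.354). The row was 61.9% GC, and NPC replicate 1 held the highest value; the part of this in the difference was not tested.

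The other arms of the member hairpins are made from the same precursors and are usually discarded when the 5p arm is loaded. RefSeq (GRCr8) gave these 3p arms, with seeds in capitals; they are shown because the 3p arms tell the 2 miR-125b hairpins apart where the 5p arms cannot.
miR-125b-1-3p: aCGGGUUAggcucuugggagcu
miR-125b-2-3p: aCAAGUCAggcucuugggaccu
miR-125a-3p: aCAGGUGAgguucuugggagcc
miR-99b-3p: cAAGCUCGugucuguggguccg
All 6 of the 3p arms had a row. The deposited sequence had 21 bases for miR-125b-1-3p and miR-125a-3p and 23 for miR-99b-3p, against 22 in RefSeq. For miR-125b-2-3p both had 22. The row of miR-100-3p held 0 to 12 counts a library and was not abundant enough to be tested, and miR-99a-3p held 0 to 19 counts. Of the 5 tested, 0 passed edgeR's test over all rows and all 5 log2 fold changes were negative, with a median of -0.36, beside 200 of 390 negative and a median of -0.038 over all rows. The median is the value of miR-125a-3p, which was -2.6e-05 without NPC replicate 1 and -0.15 with the GC correction. Over the other settings the sign turned at least once for 4 of the 5, as for miR-99b-3p with the GC correction (0.031), and not for miR-125b-2-3p.

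miR-125b-2-3p, from chromosome 11, had 329, 270, 321 and 241 CPM in NPPC replicates 1 to 4, against 631, 470, 350.1 and 373 CPM in NPC replicates 1 to 4. All NPPC libraries lay below all NPC libraries, and the groups did not overlap, in either direction, for 10.8% of all rows. The log2 fold change was -0.65 ± 0.24 (SE), with an unadjusted p of 0.0269 and an adjusted p of 0.387 by edgeR's quasi-likelihood test, so it did not pass. Over 22 other settings it ran from -0.99 to -0.42, with an adjusted p of at least 0.122, and it was -0.44 without NPC replicate 1.

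miR-125b-1-3p, from chromosome 8, had 897, 673, 820.5 and 776 CPM in NPPC replicates 1 to 4, against 1419, 791, 830 and 790.2 CPM in NPC replicates 1 to 4. The groups overlapped apart from the high value of NPC replicate 1. On the log2 scale its fold change was -0.27 ± 0.24 (SE), with an edgeR adjusted p of 0.596, and it was -0.011 without NPC replicate 1.

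The ratio of miR-125b-1-3p to miR-125b-2-3p was 2.73, 2.49, 2.56 and 3.22 in NPPC replicates 1 to 4, against 2.25, 1.68, 2.37 and 2.12 in NPC replicates 1 to 4. The lowest NPPC value exceeded the highest NPC value. For the divisor, miR-125b-2-3p, the groups did not overlap either, as in 10.8% of all rows, so the ratio is not a separate result. The ratio was chosen after the values had been seen, so it is given as a description without a test. miR-125b-5p stood at 33.0 to 43.0 times its 2 3p arms together in NPPC and 18.7 to 34.3 times in NPC libraries, also chosen after the values were seen, and here the groups overlapped.

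For the chromosome 1 hairpins, neither ratio of arms passed. miR-99b-5p was 27.2 ± 3.26 (SD, n = 4) times miR-99b-3p in NPPC and 24.6 ± 1.73 (SD, n = 4) times in NPC exosomes, a log2 difference of 0.14 (exact permutation p = 0.229). miR-99b-3p itself averaged 264 ± 50.2 CPM (SD, n = 4) in NPPC and 342 ± 29.1 CPM (SD, n = 4) in NPC exosomes, a log2 fold change of -0.37 with an edgeR adjusted p of 0.504. miR-125a-5p was 47.1 ± 7.76 (SD, n = 4) times miR-125a-3p in NPPC and 44.5 ± 21.4 (SD, n = 4) times in NPC exosomes, where replicates 2 and 4 lay at 67.8 and 57.7 and replicates 1 and 3 at 27.6 and 25.0 (exact permutation p = 0.629). miR-125a-3p held 40 to 117 counts a library, so these values are the least precise.

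**Figure D4:**
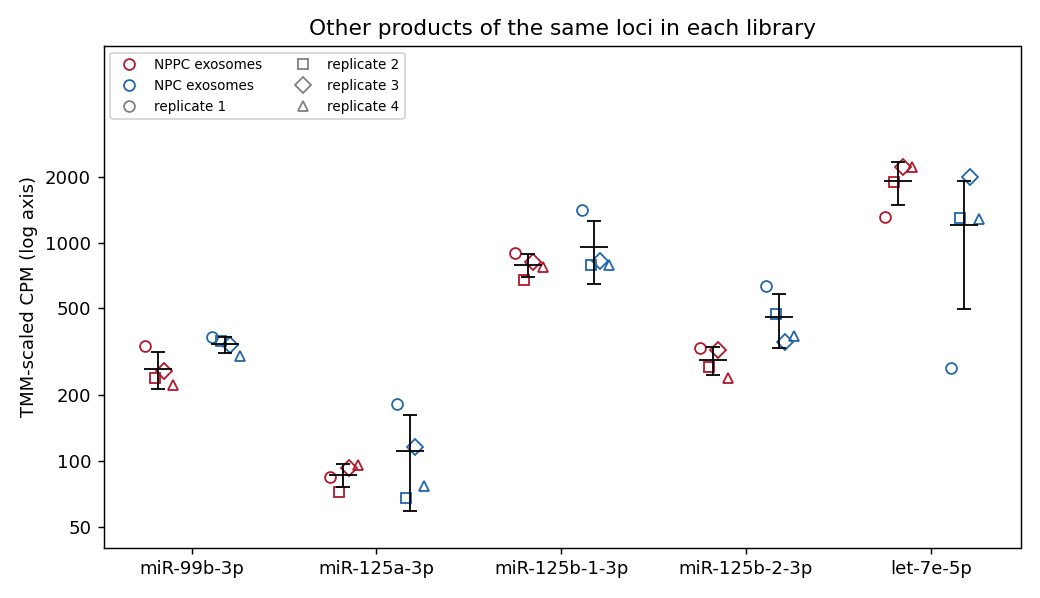
Levels of the 3p arms of 4 member hairpins and of let-7e-5p in TMM-scaled CPM (log axis), NPPC in red and NPC in blue, with the mean and SD of 4 libraries. All NPPC libraries lie below all NPC libraries for miR-125b-2-3p (241 to 329 CPM against 350.1 to 631 CPM), and let-7e-5p is at 267 CPM in NPC replicate 1. Over all rows tested, the groups do not overlap in 10.8%.

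The let-7 miRNAs that lie between the members, known for repressing growth genes such as Hmga2, spread widely between libraries. let-7e-5p, the middle hairpin of the chromosome 1 cluster, had 1311, 1900, 2220 and 2229 CPM in NPPC replicates 1 to 4, against 267, 1294, 1995 and 1288 CPM in NPC replicates 1 to 4. NPC replicate 1 was the lowest library, and NPPC replicate 1 the lowest of its group. The log2 fold change was 0.66 ± 0.51 (SE) with an edgeR adjusted p of 0.596. It was 0.34 without NPC replicate 1 and 0.25 with the GC correction.

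Against its neighbour miR-99b-5p, let-7e-5p stood at 0.168, 0.284, 0.321 and 0.323 in NPPC replicates 1 to 4, against 0.0268, 0.153, 0.254 and 0.175 in NPC replicates 1 to 4. The log2 difference was 1.19, with an exact permutation p of 0.0857 and an adjusted p of 0.381, and it was 0.49 without NPC replicate 1. The row of let-7e-5p was 40.9% GC and that of miR-99b-5p 63.6%, and NPC replicate 1 was low for the first and high for the second. The part of GC content in this ratio was not tested.

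let-7c-5p, next to miR-99a, summed to 28905 ± 6920 CPM (SD, n = 4) in NPPC and 18987 ± 9869 CPM (SD, n = 4) in NPC exosomes, a log2 fold change of 0.61 with an edgeR adjusted p of 0.596. let-7a-5p, next to miR-100, had a log2 fold change of 0.63 with the same adjusted p, 0.596. Without NPC replicate 1 let-7c-5p had 0.29 and let-7a-5p 0.30, and with the GC correction they had 0.16 and 0.21. Both are also made from other hairpins, so their values are uncertain. The chromosome 8 row named let-7a-5p held the let-7c-5p sequence and, in every library, the same counts as each let-7c-5p row. In NPPC replicate 1 it held 7767 counts, against 1740 in the other let-7a-5p row, and in NPC replicate 1 it held 1245 against 104. Most counts summed as let-7a-5p were thus of the let-7c-5p sequence, and the values of let-7a-5p and let-7c-5p are not separate results. With neither library numbered 1, a setting chosen after the data were seen, let-7c-5p and let-7a-5p passed edgeR's test (adjusted p = 0.0377 and 0.0382), and in the other 21 settings they did not. Among the let-7 3p arms, let-7c-2-3p averaged 508 ± 68.8 CPM (SD, n = 4) in NPPC and 313 ± 210 CPM (SD, n = 4) in NPC exosomes, and its log2 fold change of 0.70 had an edgeR adjusted p of 0.675. It was 0.31 without NPC replicate 1, which held 6 counts, and 0.25 with the GC correction. The rows of let-7c-2-3p lay on chromosomes 7 and 17, at none of the places of the members. The chromosome 17 row held more counts than the other in every library, and RefSeq gives let-7a-1-3p the same sequence. let-7e-3p had -0.045 (adjusted p = 0.967 by edgeR), and let-7c-1-3p was counted in NPPC replicate 4 alone, with 8 counts. Of the 14 partners and other arms, 12 had a row and 10 were tested. Of these 0 passed over all rows, 4 were positive and 6 negative, and 1 (miR-125b-2-3p) had an unadjusted p under 0.05, near the 10.5% of all rows.

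On the TMM scale the members varied little between libraries compared with other abundant miRNAs. Over 8 libraries the coefficient of variation of CPM was 8.58% for miR-125b-5p, 12.8% for miR-100-5p, 12.8% for miR-99a-5p, 13.9% for miR-99b-5p and 16.3% for miR-125a-5p. The median over 167 rat miRNAs with at least 100 CPM was 29.3%, and 3 of them had a lower value than miR-125b-5p. Without NPC replicate 1 the values of the members were 8.60% to 15.3% and the median was 16.1%, so the gap was smaller without that library. For shares of library counts, which are not scaled, the values were 18.7% to 42.0% against a median of 33.8%, and 3 of the 5 members lay below that median.

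Within NPPC libraries, the coefficient of variation of CPM was 2.45% for miR-125b-5p, 3.05% for miR-100-5p, 7.00% for miR-99b-5p, 8.29% for miR-99a-5p and 10.3% for miR-125a-5p, against a median of 10.97% over the same 167 miRNAs. On unscaled shares, miR-99b-5p (13.2%), miR-99a-5p (14.9%) and miR-125a-5p (16.4%) lay above the NPPC median of 11.6%. In NPC libraries the 5 members varied by 11.9% to 21.7%, against a median of 33.1%. On unscaled shares, miR-99b-5p (46.6%) and miR-125a-5p (48.9%) lay above the NPC median of 40.9%, and the other members lay below it. The NPC libraries, replicate 1 included, thus spread more widely than the NPPC libraries both for the members and for the table. Over both groups together, the median for CPM was 29.3% with NPC replicate 1 and 16.1% without it.

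The likeness of profiles was measured as the root mean square difference between log2 CPM profiles over the 8 libraries, each centred on its own mean, among 166 other rat miRNAs with at least 100 CPM. For each member the 2 closest profiles belonged to miRNAs outside the families. They were miR-185-5p (0.099) and miR-134-5p (0.14) for miR-99a-5p, miR-151-3p (0.076) and miR-25-3p (0.098) for miR-99b-5p, and miR-103-3p (0.11) and miR-532-5p (0.14) for miR-100-5p. miR-125a-5p was closest to miR-455-3p (0.10) and let-7d-3p (0.12), and miR-125b-5p to miR-27a-3p and miR-30d-5p (0.15 each). Among the members the closest pair was miR-99a-5p and miR-100-5p (0.1435). That is near the farther of the 2 profiles named for miR-99a-5p (0.1426) and for miR-100-5p (0.136). The farthest pair was miR-100-5p and miR-125a-5p (0.36), against a median distance of 0.45 to 0.52 from a member to the other miRNAs. Profiles share the libraries and their depth, and the distances are descriptions.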

How the data were processed

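Libraries were made from exosome RNA with TruSeq small RNA kits, per the labels' protocols. The submitters' processing notes name CASAVA 1.8; no aligner, miRBase version or genome build is stated there or in the labels. The deposited table holds estimated counts per miRNA row, in which the authors divided reads between rows of the same sequence, and a scaled signal, not used for the main results, that the authors gave as the count times a factor per library.

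Rows with the same name before any variant suffix were summed and rounded to whole numbers. The fit was edgeR's (4.0.16, R 4.3.3) two-sided quasi-likelihood test with TMM factors and the filterByExpr filter, group as sole term, with Benjamini-Hochberg adjustment over 390 rows. Shares and ratios were tested by exact permutation over 70 arrangements (Python 3.11.15). Alternatives included DESeq2 1.42.0, limma 3.58.1, other scalings and filters, a GC correction and each library left out. Profiles used log2 CPM with a prior count of 2. Library totals of 329011 to 1416940 counts limit the precision of low rows.

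Replicate numbers come from the sample titles. Over 390 rows, the departures of same-numbered libraries from their group means had correlations of 0.565, 0.116, 0.366 and 0.243 for numbers 1 to 4. Differently numbered libraries were not compared in this way, and the labels state no pairing, so these values do not show one. A replicate block was fitted as an alternative. On simulated counts for this comparison, edgeR called 20.2% of the rows with a 2-fold change and 74% of those with a 4-fold change, among 358 rows fitted. It also called 1.72% of the unchanged rows. The simulated rows covered all levels of abundance and held no GC bias, so these percentages do not give the power for the members.

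The members, lists and tests were chosen with earlier results of these data known. Named were all members, their cluster partners and other arms with a row, and the 2 closest profiles per member. miR-351-5p, the ratios of miR-125b arms, the paired exact test of shares and ratios, the authors' scaling and the fit with neither library numbered 1 were added after values were seen.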

Additional observations from a re-analysis of the deposited data

Results flagged for a closer look

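Of the groups of 4 libraries examined for a library far from the other 3, 4 of 66 held one, where chance gives about 1 in 20. In NPPC replicate 1, miR-99b-5p took 0.789% of counts, with the other NPPC libraries between 0.608% and 0.621%. In NPC replicate 1, miR-99b-5p took 1.63% of counts, with the other NPC libraries between 0.684% and 0.827%. miR-125b-1-3p stood at 1419 CPM in that library, against 790.2 to 830 CPM in the other NPC libraries. The log2 ratio of miR-100-5p to miR-99a-5p was -1.49 in NPC replicate 3, with the other NPC libraries between -1.88 and -1.87.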

How the results depend on the processing

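Of 110 log2 fold changes of the members under 22 other settings, 95 kept their sign and 15 turned, and in all 22 settings 0 of 5 members had an adjusted or an unadjusted p under 0.05. With the GC correction the fold change of miR-99b-5p was 0.18 and that of miR-100-5p 0.013, and with the replicate block and the GC correction together they were 0.16 and 0.024, with miR-125a-5p at 0.0093. Without a filter miR-100-5p had 0.052 and miR-125a-5p 0.032. miR-100-5p had 0.00022 with rows as deposited and 0.0076 with the authors' scaling. miR-125b-5p had -0.17 with total count scaling and -0.011 among rat names alone. With each library left out in turn miR-100-5p ran from -0.13 to 0.10, miR-125a-5p from -0.16 to 0.023, miR-99a-5p from -0.20 to -0.051, miR-99b-5p from -0.29 to -0.15 and miR-125b-5p from 0.087 to 0.17. The replicate block changed no call of a member, with fold changes of -0.15 for miR-99a-5p, -0.24 for miR-99b-5p, -0.042 for miR-100-5p, -0.058 for miR-125a-5p and 0.11 for miR-125b-5p. The median of all rows was -0.287 with total count scaling, against -0.038 under TMM. Relative to the median of all rows the members' changes under total count scaling are smaller than printed. Of the rows with an unadjusted p under 0.05, 39.0% were higher in NPPC exosomes under TMM, 55.3% with upper-quartile factors and 23.3% with total count scaling.

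Of 88 share differences 86 kept their sign, and of 100 ratios 97 did. With a library left out the difference in the share of miR-125b-5p ran from -0.968 to 0.223 percentage points and that of the miR-125 sum from -1.16 to 0.220. The paired exact permutation test, chosen after the data were seen, took same-numbered libraries as pairs, which the labels do not state. It cannot give a p below 0.125 with 4 pairs, so no share or ratio could pass it. It gave that p for miR-99a-5p, miR-99b-5p and the miR-99/100 sum, lower in NPPC in 4 of 4 pairs (replicate block value of the sum -0.847 percentage points), and for let-7e-5p over miR-99b-5p, higher in 4 of 4. The log2 ratio difference ran from -0.18 to 0.045 for miR-99b-5p over miR-99a-5p, from -0.26 to 0.028 for miR-100-5p over miR-125b-5p, and from -0.032 to 0.45 for the arms of miR-125a.

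The number of rows with an adjusted p under 0.05, 1 in the edgeR fit, was 8 without a filter, 6 with the DESeq2 Wald test, 0 with the replicate block, 2 with the block and the GC correction, 0 with rows as deposited and 42 with neither library numbered 1. With a library left out it ran from 0 to 1. The number with an unadjusted p under 0.05, 41 in that fit, was 103 without a filter and 118 with neither library numbered 1, and ran from 23 without NPPC replicate 3 or 4 to 86 without NPC replicate 1; it was 65 without NPC replicate 3. The cause of these changes was not tested. Depth limits the 3p arms of miR-99a, miR-100 and miR-125a most, at 0 to 117 counts a library.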
